A study of Homo sapiens with 3 samples.

Results

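The H3K9me3 regions at 5 genes that themselves write, help to write or erase methylation of lysine 9 on histone H3 were examined in Jurkat cells. Jurkat is an established human line grown from a T cell leukaemia. Regions were taken whose gene annotation names SETDB1, EHMT1, ATF7IP, KDM3A or KDM4B. They numbered 16 of 27178 regions in the CXCL12 library and 17 of 26938 regions in the control library. These genes were singled out because regions are annotated to them, so the presence of a region is a description and not a finding. The series compared cells given the chemokine CXCL12 (also called SDF) at 100 ng/ml for 15 min with cells left untreated, after both had been kept without serum for 90 min. Each condition is 1 library made with the same antibody to H3K9me3, and the input library was not used here. With 1 library per condition no difference has a replicate check, and no test between conditions was possible. A difference between the libraries can hold the treatment, the culture and the preparation, which cannot be told apart. Nor can more marked cells be told apart from more of the mark per cell, since each library is a bulk sample.

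H3K9me3 is the mark of constitutive heterochromatin and is read by HP1 proteins. SETDB1 is a methyltransferase that deposits it, often at sites chosen by zinc finger proteins together with TRIM28, and ATF7IP binds SETDB1 and keeps it stable in the nucleus. EHMT1, also called GLP, works with EHMT2 and mainly deposits the mono- and dimethyl forms. KDM3A removes the mono- and dimethyl forms, and KDM4B acts on the trimethyl form.

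The lists give signal in bins along each region, and both the mean over bins and the value of the highest bin are used here. The annotation of the lists could be read back from the data: a promoter was counted for regions up to 7489 bp upstream or 2493 bp downstream of a start, and a gene was named from as far as 9997 bp upstream. Of single-gene regions with a promoter counted, only 29.4% in the CXCL12 library and 29.5% in the control library covered the start itself. A promoter in the lists takes in a wide stretch around a start. Among the 5 genes, 4 of 16 CXCL12 regions and 5 of 17 control regions had a promoter counted. Over all regions the share was 8.10% in the CXCL12 library and 8.29% in the control library. These shares are not like for like, since every region of the 5 genes carries a gene by the choice made. Over all regions, a gene was named for 12238 of 27178 in the CXCL12 library and 12191 of 26938 in the control library. Yet only 1 region of the 5 genes in each library lay over a start used in the lists, at EHMT1.

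At EHMT1 the start used in the lists was covered, and at KDM3A the region stopped just short of the start. ATF7IP had the longest domain upstream. Promoter sequences are shown for these genes, to show the CpG content of their RefSeq promoters. They run from 250 bases before to 50 bases after a RefSeq start in GRCh38.p14, are given 5′ to 3′ on the plus strand, and have each CG dinucleotide in capitals. CG reads the same on both strands. The region coordinates are in hg19, and the starts of the lists could not be matched to these windows by position.
EHMT1, chr9:137618755-137619054: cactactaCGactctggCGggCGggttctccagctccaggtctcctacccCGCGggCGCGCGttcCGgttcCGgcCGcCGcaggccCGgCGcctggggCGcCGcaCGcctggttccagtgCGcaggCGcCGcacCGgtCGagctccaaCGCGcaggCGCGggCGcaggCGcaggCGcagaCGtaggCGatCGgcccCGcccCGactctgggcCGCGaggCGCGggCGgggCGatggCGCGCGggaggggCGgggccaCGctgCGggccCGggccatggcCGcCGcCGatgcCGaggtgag
KDM3A, chr2:86441121-86441420: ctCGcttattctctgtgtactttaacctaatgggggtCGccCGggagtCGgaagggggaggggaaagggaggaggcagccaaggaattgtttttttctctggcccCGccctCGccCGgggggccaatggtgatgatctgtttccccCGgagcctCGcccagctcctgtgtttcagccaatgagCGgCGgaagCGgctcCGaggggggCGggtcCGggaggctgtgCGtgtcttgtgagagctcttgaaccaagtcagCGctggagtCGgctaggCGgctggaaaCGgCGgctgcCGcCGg
ATF7IP, chr12:14365432-14365731: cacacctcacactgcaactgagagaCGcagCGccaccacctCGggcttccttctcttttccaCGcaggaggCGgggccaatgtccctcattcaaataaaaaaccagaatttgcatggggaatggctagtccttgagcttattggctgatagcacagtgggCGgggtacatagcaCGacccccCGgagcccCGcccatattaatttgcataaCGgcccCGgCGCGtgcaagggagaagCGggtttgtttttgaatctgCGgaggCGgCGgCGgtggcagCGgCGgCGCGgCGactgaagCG
All 5 genes were matched in RefSeq, and KDM3A has 2 such windows and ATF7IP 6, of which the most upstream is shown. The EHMT1 window holds 51 CG dinucleotides and the KDM3A window 23, while the ATF7IP window holds 24. The median over 35116 windows is 14, and 1.01% of windows hold at least 51, while 35.8% hold at least 23. At least 1 CG occurs in 96.0% of windows. The EHMT1 window was thus among the most CpG-rich, whereas the KDM3A and ATF7IP windows shown were moderately so. The other ATF7IP windows hold at most 2 CG, and the other KDM3A window holds 31. Of the genes not shown, the KDM4B window holds 43 and the SETDB1 windows 15 and 22.

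**Figure D1:**
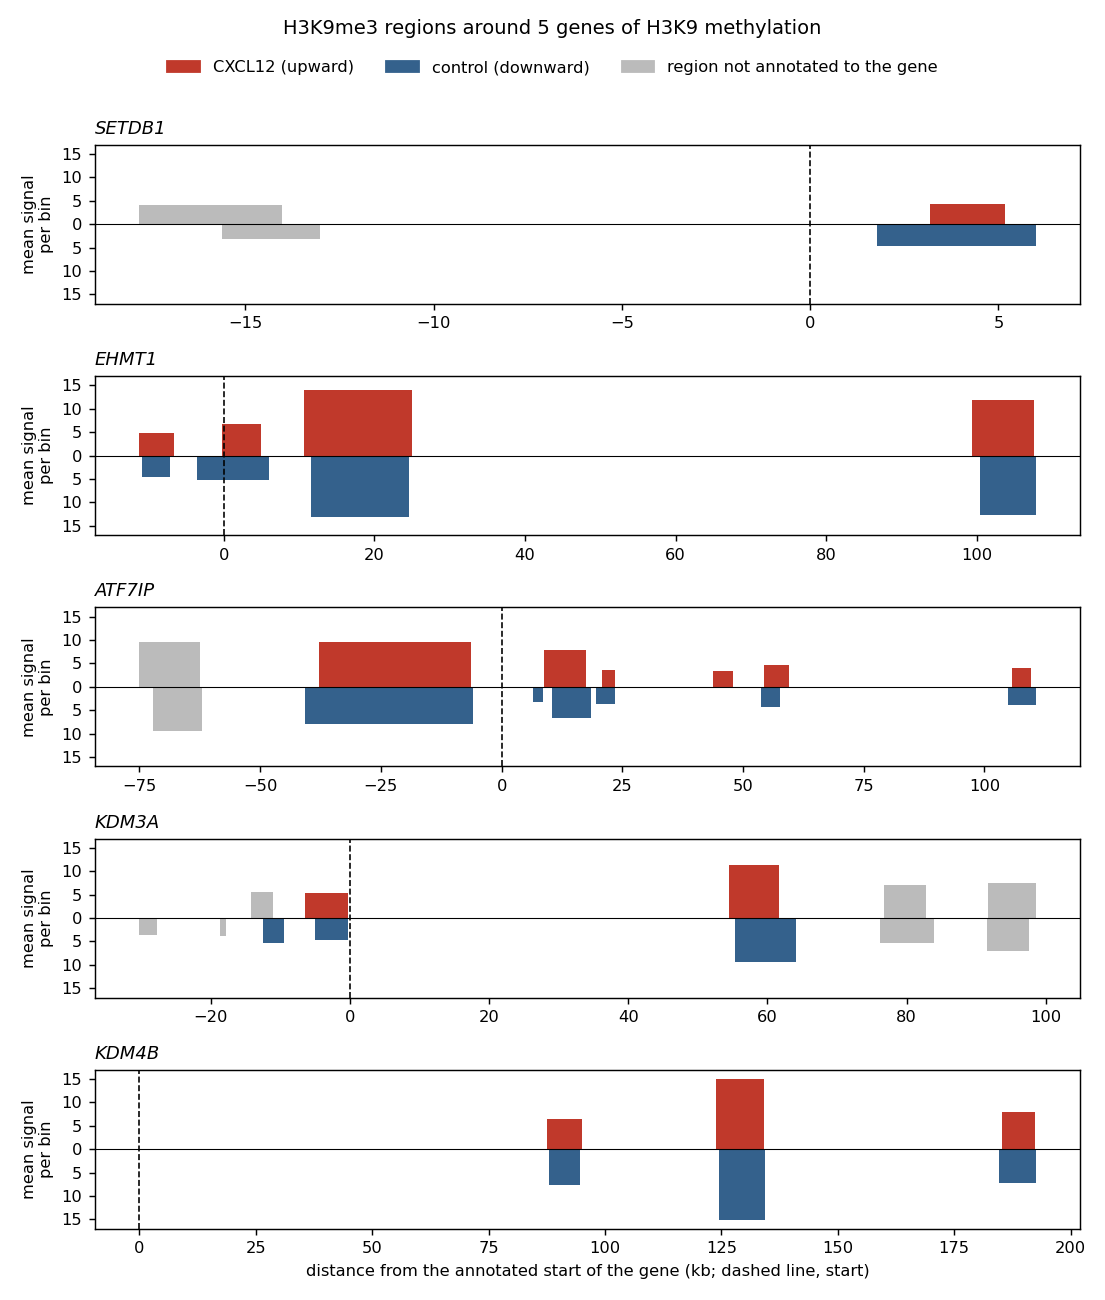
H3K9me3 regions around the annotated start of each gene (x axis, distance from the start in kb on a scale of its own for each gene; dashed line, start). Bar width is the called region and bar height the mean signal per bin, drawn upward for CXCL12 and downward for control, with regions not annotated to the gene in grey. Most regions annotated to the genes sit at much the same distances in both libraries. The start used in the lists is covered at EHMT1 alone.

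Of the writers, EHMT1 carried 4 regions in each library and SETDB1 carried 1. EHMT1 had the most intense highest bin of the 5 genes, while the SETDB1 region, whose mean was below the library median in both libraries, was the one that differed most between the libraries in length and highest bin, taken as ratios. Positions of regions are given as distance of the summit from the annotated start, with the sign negative upstream.

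The SETDB1 region lay inside the gene, 4609 bp past the start in the CXCL12 library and 4763 bp past it in the control library. It covered 2000 bp at chromosome 1, 150902000 to 150903999, in the CXCL12 library and 4200 bp, 150900600 to 150904799, in the control library. Its mean signal was 4.31 in the CXCL12 library and 4.70 in the control library. The CXCL12 region lay wholly inside the control region and was shorter at both ends. The highest bin was 9 in the CXCL12 library and 17 in the control library, a log2 ratio of −0.92 at percentile 0.341 of all shared loci. The log2 ratio of length was −1.07, at percentile 2.21. The mean signal gave a ratio of only −0.12, at percentile 24.9. A mean is taken over the bins that were counted, and these numbered 62 in the 2000 bp of the CXCL12 region and 105 in the 4200 bp of the control region. Summed signal per kb of called length went the other way, with 134 in the CXCL12 library and 117 in the control library, so the direction at SETDB1 depends on the measure. The near edge of the region was 3185 bp past the start in the CXCL12 library and 1785 bp past it in the control library. A promoter was counted in the control library alone.

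EHMT1 had its strongest region inside the gene, with the summit at the same position, 21175 bp past the start, in both libraries. The mean signal was 14.0 over 14400 bp in the CXCL12 library (chromosome 9, 140616000 to 140630399) and 13.1 over 13000 bp in the control library (140617000 to 140629999). The highest bin was 66 in the CXCL12 library and 56 in the control library. By mean signal it lay above 98.7% of the CXCL12 regions and 98.3% of the control regions, so it was among the strong regions of either library. Deep in the gene, a region at 140704800 to 140712999 had a mean of 11.8 over 8200 bp in the CXCL12 library, with its summit 106887 bp past the start. Its control counterpart at 140705800 to 140713199 had a mean of 12.7 over 7400 bp, with its summit at 107015 bp. This locus ran in opposite directions by the 2 measures, since its highest bin was 45 in the CXCL12 library and 34 in the control library. It held 3 CpG islands in the CXCL12 call and 2 in the control call.

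The region over the start of EHMT1 was the only one of the 5 genes to cover a start used in the lists. It measured 5200 bp in the CXCL12 library (140605200 to 140610399) and 9600 bp in the control library (140601800 to 140611399). Its upstream edge was at −217 bp in the CXCL12 library and at −3617 bp in the control library, and its summit was 887 bp (CXCL12) and 919 bp (control) past the start. The start was covered in both calls, and the CXCL12 call was shorter mostly on the upstream side. The mean signal was 6.70 in the CXCL12 library and 5.31 in the control library, a log2 ratio of 0.34 at percentile 88.6, which was the highest of the 16 shared loci. The highest bin was 26 in the CXCL12 library and 18 in the control library, while the log2 ratio of length was −0.88. The summed signal, which follows length, had a log2 ratio of −0.39, so this locus was more intense and narrower in the CXCL12 call. A further region upstream had a mean of 4.80 over 4600 bp in the CXCL12 library (140594200 to 140598799, summit at −8569 bp) and 4.57 over 3600 bp in the control library (140594600 to 140598199, −8809 bp). Its near edge stopped 6618 bp short of the start in the CXCL12 library and 7218 bp short in the control library.

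No CpG island was counted in either library in the region over the EHMT1 start of the lists. The RefSeq window printed above is rich in CG, but it could not be placed against that start and may be a different site. EHMT1 is known to have long transcripts that begin well upstream of the start used in the lists. Whether the start covered here is an internal one was not tested. Covered and upstream are therefore meant relative to the start used in the lists.

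ATF7IP, the partner of SETDB1, carried the longest H3K9me3 domain of the 5 genes, lying upstream of the gene, and several less intense regions inside it. The domain covered 31.4 kb at chromosome 12, 14480800 to 14512199, in the CXCL12 library and 34.8 kb, 14477800 to 14512599, in the control library. Its mean signal was 9.53 in the CXCL12 library and 7.88 in the control library, with highest bins of 43 (CXCL12) and 35 (control). The signal was thus higher and the domain shorter in the CXCL12 call, and the calls differed mostly at the end away from the gene. The log2 ratio of mean signal was 0.27 at percentile 83.5. By length the domain exceeded 99.2% of CXCL12 regions and 99.3% of control regions. It stopped 6412 bp before the ATF7IP start in the CXCL12 library and 6012 bp before it in the control library, so the annotated start was left uncovered in both. A neighbouring region farther upstream, not annotated to ATF7IP, ended at −62.4 kb in the CXCL12 library and −62.0 kb in the control library, with means of 9.51 (CXCL12) and 9.39 (control).

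Inside ATF7IP the regions were weaker, and 2 of the 6 loci were called in a single library. The strongest had a mean of 7.92 over 8600 bp in the CXCL12 library (14527400 to 14535999, summit 12589 bp past the start) and 6.74 over 8200 bp in the control library (14529000 to 14537199, 13517 bp). Its highest bin was 24 in the CXCL12 library and 19 in the control library. The other loci called in both libraries lay below the median signal of their library. The next locus had a mean of 3.58 over 2600 bp in the CXCL12 library (14539400 to 14541999, 23181 bp) and 3.75 over 3800 bp in the control library (14538200 to 14541999, 21965 bp), with a highest bin of 9 in each. A locus farther in had 4.71 over 5200 bp in the CXCL12 library (14573000 to 14578199, 55261 bp) and 4.38 over 3800 bp in the control library (14572400 to 14576199, 55829 bp), with highest bins of 13 (CXCL12) and 10 (control). The last had 4.05 over 3800 bp in the CXCL12 library (14624400 to 14628199, 109005 bp) and 3.83 over 5600 bp in the control library (14623600 to 14629199, 108893 bp), with highest bins of 12 (CXCL12) and 10 (control). The differences in mean at these weak loci were small, from −0.07 to 0.10 on the log2 scale, and the calls moved at their edges in either direction. A region called in the CXCL12 library alone, at 14562400 to 14566599 and 45597 bp past the start, had a mean of 3.46, with 10 as its highest bin. A region called in the control library alone, at 14525200 to 14527199 and 7650 bp past the start, had a mean of 3.32, with 7 as its highest bin. Both single-library calls were weak within their library, at percentile 10.4 (CXCL12) and 8.73 (control) of mean signal. The nearest control region was 5801 bp from the CXCL12-only call, whereas the control-only call lay 201 bp from a CXCL12 region.

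Of the erasers, KDM3A had regions on both sides of the gene and none inside it, and KDM4B had its regions deep in the gene and beyond its end. At KDM3A the region next to the start covered 6200 bp at chromosome 2, 86661800 to 86667999, in the CXCL12 library and 4800 bp, 86663200 to 86667999, in the control library. It ended at the same base in both, 272 bp before the start, and held 1 CpG island. The start was therefore left uncovered in both libraries. The mean signal was 5.32 in the CXCL12 library and 4.74 in the control library, and the highest bin 13 (CXCL12) and 10 (control). The summit was at −3807 bp in the CXCL12 library and at −2543 bp in the control library, the largest shift of a summit among the 16 shared loci, at 1264 bp.

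The strongest KDM3A region lay downstream of the gene and is also annotated to VPS24, a subunit of the ESCRT-III membrane-remodelling complex. Its mean signal was 11.4 over 7200 bp in the CXCL12 library (86722800 to 86729999) and 9.44 over 8800 bp in the control library (86723600 to 86732399), with highest bins of 48 (CXCL12) and 41 (control). The summit was 59217 bp past the start in both. The region was again more intense and shorter in the CXCL12 call, with a log2 ratio of mean signal of 0.27. Farther upstream, the CXCL12 region at 86654000 to 86657199 had a mean of 5.60, with 16 as its highest bin, and ended 11072 bp before the start, beyond the reach of the annotation. The control region that overlaps it, at 86655800 to 86658799, had a mean of 5.39, with 19 as its highest bin, ended 9472 bp before the start and was annotated to KDM3A. KDM3A was thus listed with 2 CXCL12 regions and 3 control regions although each of its 3 loci was called in both libraries, with 16.6 kb called in each.

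KDM4B, the eraser that acts on the trimethyl form, carried the region with the highest mean signal of the 5 genes. Its summit was 128572 bp (CXCL12) and 128508 bp (control) past the start, and it covered 10200 bp at chromosome 19, 5093000 to 5103199, in the CXCL12 library and 10000 bp, 5093600 to 5103599, in the control library. The mean signal was 15.0 in the CXCL12 library and 15.2 in the control library, and the highest bin 52 (CXCL12) and 54 (control). It was among the strongest regions of either library, above 99.1% of CXCL12 regions and 99.2% of control regions, and its log2 ratio of mean signal was −0.01. It held 2 CpG islands. A region before it had a mean of 6.41 over 7600 bp in the CXCL12 library (5056600 to 5064199, summit 93116 bp past the start) and 7.55 over 6600 bp in the control library (5057200 to 5063799, 93276 bp), with highest bins of 23 (CXCL12) and 25 (control). Its log2 ratio of −0.24 was the lowest of the 16 shared loci, at percentile 13.8. The region downstream of the gene, also annotated to LOC100507080, had a mean of 7.98 over 7000 bp in the CXCL12 library (5154400 to 5161399) and 7.24 over 7800 bp in the control library (5153800 to 5161599), with highest bins of 31 (CXCL12) and 28 (control). Over its 3 loci, the called length of KDM4B was 24.8 kb in the CXCL12 library and 24.4 kb in the control library, and its mean over all bins 10.4 (CXCL12) and 10.6 (control). The nearest KDM4B region began 87476 bp past the annotated start in the CXCL12 library and 88076 bp past it in the control library.

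**Figure D2:**
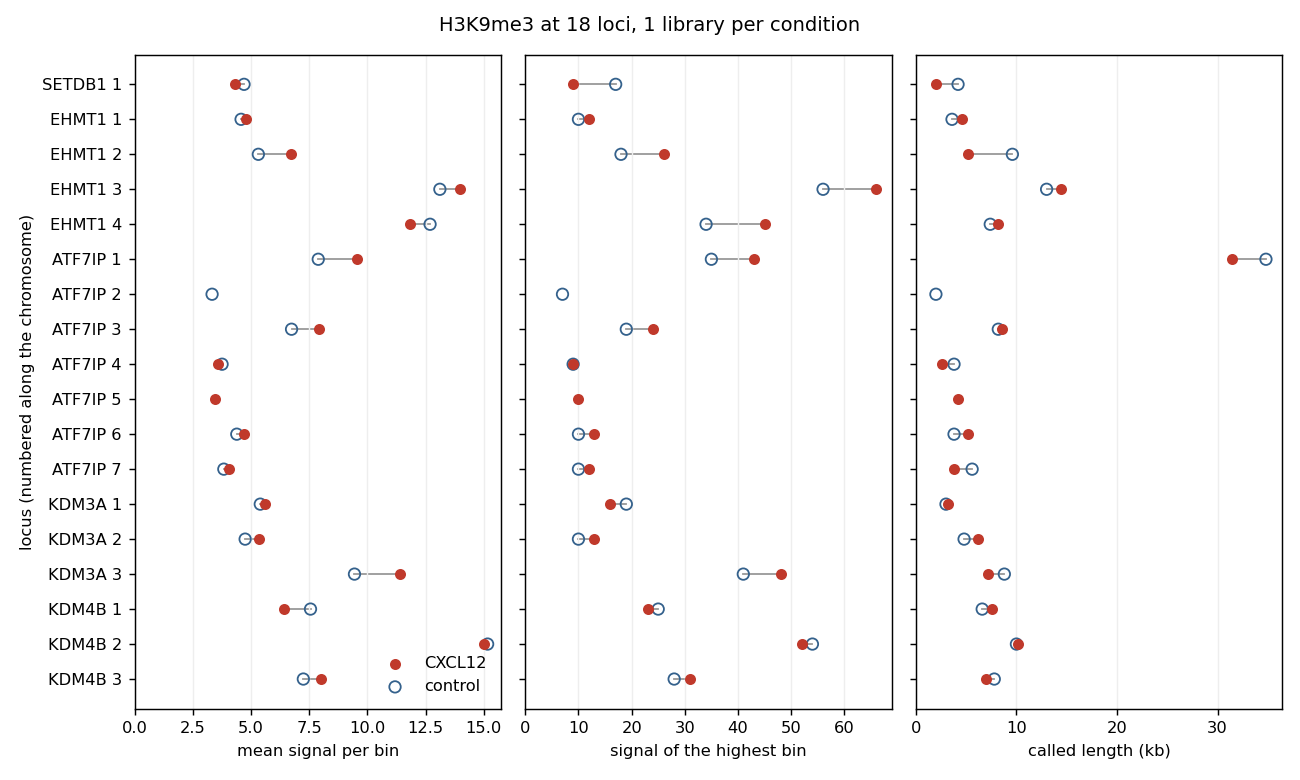
Mean signal per bin, signal of the highest bin and called length (x axes) at each of the 18 loci (rows, numbered along the chromosome within a gene), for CXCL12 (filled points) and control (open points), 1 library each; a single point marks a locus called in 1 library. Most pairs lie close together, with the widest gaps at EHMT1 locus 2 and ATF7IP locus 1 in length and at EHMT1 loci 3 and 4 in highest bin.

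Regions of the libraries that shared at least 1 bp were joined into loci so that the conditions could be set side by side. Of the 18 loci, 16 (88.9%) were called in both libraries. The share was 73.3% of all 29404 loci and 76.0% of the 13235 loci with a gene. The rest of the 18 were 1 CXCL12-only and 1 control-only locus, both at ATF7IP, against 14.6% (CXCL12 only) and 12.2% (control only) of all loci. The 5 genes were chosen with their calls known, so the higher share is a description only. Where a locus had 1 region in each library, the summit moved by a median of 157 bp at the 16 loci and by 288 bp over all 19143 such loci.

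The mean signal was higher in the CXCL12 library at 11 of the 16 shared loci and lower at 5, where 57.0% of all 21541 shared loci were higher. The median log2 ratio was 0.09 at the 16 loci and 0.04 over all shared loci, and the 16 ratios ranged from −0.24 to 0.34. None of the 16 differed 2-fold by mean signal in either direction. Over all shared loci 0.116% were 2-fold higher and 0.176% 2-fold lower, so a count of 0 in 16 is near that background. At 1.5-fold the count was still 0, against 2.28% higher and 1.92% lower. The highest bin was higher at 11, lower at 4 and equal at 1, against 52.4% higher over all shared loci, with a median log2 ratio of 0.25 against 0.07. None was 2-fold apart by that measure, with 0.696% higher and 0.279% lower over all. Summed signal was higher at 10 loci and lower at 6, against 67.1% higher over all shared loci. Its median log2 ratio was 0.007 against 0.11 over all, so by this measure the 16 loci lay below all shared loci. None of the 16 was past 2-fold by summed signal, against 2.84% higher and 0.998% lower. Signal per kb was higher at 12 and lower at 4, against 56.4% higher, with none past 2-fold, against 0.246% higher and 0.302% lower. At 10 loci the mean and the highest bin were both higher in the CXCL12 library, at 3 both were lower and at 2 they were opposite, the deepest EHMT1 locus and the farthest upstream KDM3A locus.

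Called length differed more than signal did. At 1 of the 16 loci, SETDB1, the CXCL12 call was at least 2-fold shorter, where 2.85% of all shared loci were, and at 0 it was 2-fold longer, against 5.55%. At 1.5-fold, 2 were shorter, SETDB1 and the EHMT1 locus over the start, against 8.06%, and 0 longer, against 14.6%. The CXCL12 call was longer at 9 loci and shorter at 7, against 55.0% longer over all, with a median log2 ratio of 0.05 against 0.07 over all shared loci. Mean and length moved in opposite directions at 8 of the 16 loci, against 65.5% of all shared loci. Among the 5 genes both stronger and weaker loci were seen. Over all bins of a gene, EHMT1 had means of 10.9 in the CXCL12 library and 10.0 in the control library, and ATF7IP 7.77 (CXCL12) and 6.67 (control). KDM3A had 8.09 (CXCL12) and 7.35 (control) over its 3 loci. KDM4B had 10.4 (CXCL12) and 10.6 (control), and SETDB1 4.31 (CXCL12) and 4.70 (control), so 3 genes were higher and 2 lower in the CXCL12 library.

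**Figure D3:**
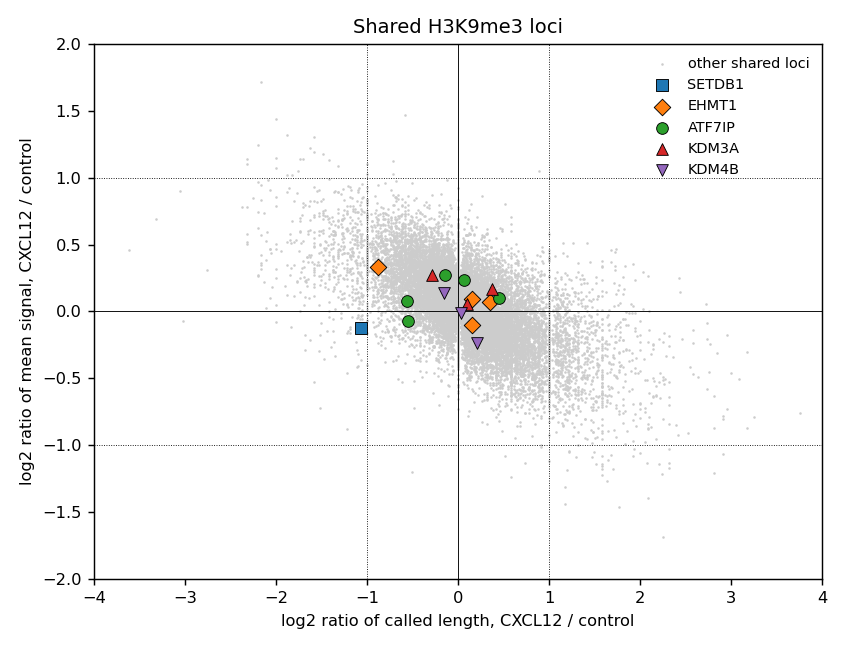
Log2 ratio of mean signal (y axis) against log2 ratio of called length (x axis), CXCL12 over control, at all 21541 shared loci (grey) and at the 16 shared loci of the 5 genes (symbols); dotted lines mark 2-fold. SETDB1 alone lies past a 2-fold line, at −1.07 in length, and the 5 genes otherwise sit within the cloud.

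Loci of other genes with nearly the same levels and lengths were found among the other genes. Likeness was the Euclidean distance over 4 values, the log2 mean signal and log2 length of both libraries, among 9266 shared loci that carry another named gene. The locus nearest to SETDB1 was at GPR143, with means of 4.55 in the CXCL12 library and 4.66 in the control library (distance 0.079), followed by CTHRC1 (0.168). Nearest to the strongest EHMT1 locus were C18orf22 (0.129) and the immunoglobulin heavy chain locus at IGHV6-1 (0.130). Nearest to the ATF7IP domain were the zinc finger domains at ZNF227 with ZNF233 (0.185) and at ZNF429 (0.186). Both zinc finger domains lie on chromosome 19, with lengths of 34.0 and 33.2 kb in the CXCL12 library. FGD3 (0.107) and KIF1A (0.147) were nearest to the downstream KDM3A locus. ZNF623 (0.096) and the locus of C21orf29 and KRTAP10-4 (0.111) were nearest to the strongest KDM4B locus.

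The rest of the machinery was then read from a list of 48 genes that holds the 5. Of the 43 others, 18 had a region in the CXCL12 library and 16 of these also in the control library. The 18 are 41.9% of the 43, against 30.0% of 20052 protein-coding genes. These shares may not be like for like. The list genes were also sought under older symbols, while 86.0% of all symbols in the lists matched RefSeq. Gene length was not taken into account. By role, a region was listed at 6 of 9 writers, 4 of 7 writer partners, 6 of 12 erasers and 3 of 7 readers. The same held for 2 of 4 genes of the HUSH silencing complex and its partner MORC2, and for 2 of 9 other chromatin factors. The 5, singled out for having a region, are included and raise the counts of writers, writer partners and erasers. No region was listed for the other 25, among them, as examples chosen after the lists were read, SUV39H1, EHMT2, SETDB2, TRIM28, KDM1A, KDM4A, the HP1 genes CBX1, CBX3 and CBX5, and DNMT1. The 18 genes carried 50 loci, of which 44 (88%) were called in both libraries, 6 in the CXCL12 library only and 0 in the control library only, against 73.3% (both), 14.6% (CXCL12 only) and 12.2% (control only) of all loci. Among loci with a gene, 76.0% were called in both libraries. Over the 44 shared loci of the 18 genes the median log2 ratio of mean signal was 0.02, against 0.04 over all shared loci, with a range from −0.35 to 0.64. Of the 44 ratios 25 were above 0 and 19 below, against 57.0% above 0 over all shared loci. None was past 2-fold, against 0.116% higher and 0.176% lower.

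Among the partners of the writers, RESF1, a SETDB1-binding protein listed under C12orf35, had the most DNA called of the whole list. Its loci summed to 78.2 kb in the CXCL12 library and 75.4 kb in the control library, with means of 11.9 (CXCL12) and 11.4 (control). ATF7IP2, the paralog of ATF7IP, had 49.8 kb in the CXCL12 library and 45.8 kb in the control library, with means of 10.5 (CXCL12) and 10.7 (control). Both ATF7IP and its paralog thus have long stretches of the mark annotated to them, as do other genes of the list. These stretches need not lie inside the gene. At ATF7IP2, 2 of 5 CXCL12 regions and 1 of 4 control regions lay inside it. At RESF1 these were 1 of 3 (CXCL12) and 1 of 4 (control), whereas at PRDM16 they were 4 of 5 in each library. PRDM16 had 51.6 kb (CXCL12) and 50 kb (control), and CDYL2 47.2 kb (CXCL12) and 50 kb (control). ZNF644, which works with the EHMT1 and EHMT2 pair, had means of 4.67 in the CXCL12 library and 4.42 in the control library.

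Of the other writers, PRDM16 had means of 8.37 in the CXCL12 library and 8.22 in the control library over 5 loci. SUV39H2, a paralog of SUV39H1, had 3.88 in the CXCL12 library and 2.85 in the control library, PRDM2 4.46 (CXCL12) and 3.94 (control), and MECOM had a single CXCL12 region with a mean of 3.11. Of these, only PRDM16 stood above the library median of 5.10 (CXCL12) and 5.06 (control). SUV39H2, PRDM2 and MECOM had no region inside the gene in either library. Of the other erasers, KDM4C, a relative of KDM4B, had means of 6.01 in the CXCL12 library and 6.20 in the control library over 3 loci. PHF2, a demethylase of the dimethyl form, had means of 5.28 (CXCL12) and 5.07 (control), and JMJD1C, a relative of KDM3A, had 3.78 (CXCL12) and 4.08 (control). KDM7A, listed as JHDM1D, had regions in the CXCL12 library alone, with a mean of 4.14 over 2 loci.

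The readers CDYL and CDYL2, which bind methylated lysine 9, had means close to the median region: CDYL 5.23 (CXCL12) and 4.89 (control), and CDYL2 4.81 (CXCL12) and 4.51 (control). CDYL2 held the highest single ratio of the list, 0.64, at a locus that was 4000 bp long in the CXCL12 library and 10200 bp in the control library. The same locus had a log2 ratio of 0.11 by highest bin and −0.63 by summed signal, so its direction depends on the measure. LRIF1, listed as C1orf103 and known to bind HP1, had 5.82 in the CXCL12 library and 5.27 in the control library. In the HUSH silencing complex, MPHOSPH8, its H3K9me3-binding subunit, had 6.11 in the CXCL12 library and 4.74 in the control library at 1 locus. MORC2, an ATPase that works with it, had 8.69 in the CXCL12 library and 6.15 in the control library over 2 loci, with log2 ratios of 0.47 and 0.59. Both MORC2 loci were thus more intense in the CXCL12 library by mean signal, and neither reached 2-fold. The regions of LRIF1, MPHOSPH8 and MORC2 all lay outside the gene. Of the other chromatin factors, the remodeller ATRX had 3.76 (CXCL12) and 4.15 (control), and the DNA methyltransferase gene DNMT3A had 12.6 (CXCL12) and 11.5 (control), the highest mean of the list.

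**Figure D4:**
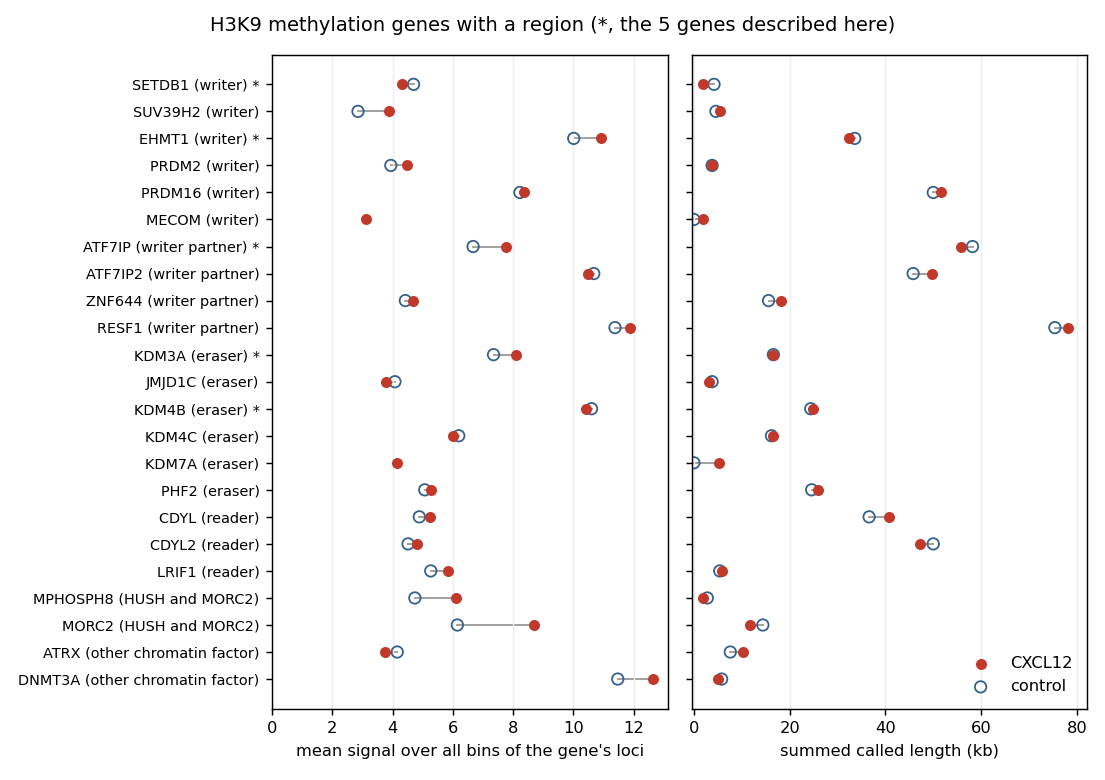
Mean signal over all bins of a gene's loci (left) and summed called length in kb (right) for the 23 genes of the 48-gene list that have a region, by role, for CXCL12 (filled points) and control (open points), 1 library each; a missing open point on the left marks a gene called after CXCL12 only. Pairs lie close together at most genes, and RESF1, ATF7IP, PRDM16 and ATF7IP2 have the longest called length in the CXCL12 library.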

How the data were processed

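H3K9me3 was measured by chromatin immunoprecipitation and sequencing in 1 CXCL12 and 1 control library of Jurkat cells, grouped by their labels. The input library was not used. The deposited regions come as 1 list per library. Per the submitters' processing notes, the tools were BWA 0.7.12 and SICER 1.1, on hg19. Settings, scaling between libraries and use of the input were not given in the sources used here. As deposited by the authors, the signal is, per the file headers, a mean over bins and the value of the highest bin. Mean times bins was whole, within 0.001%, in 100% of regions. Read numbers are not given, which leaves the depth unknown and allows no counting interval. How depth bears on signal and called length was not tested.

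Regions sharing at least 1 bp were chained into loci with Python 3.11.15 and pandas 2.3.3. The mean of a locus is over all its bins, and ratios are log2 of CXCL12 over control with no pseudocount. Lengths include both ends, and coordinates are as deposited. With 1 library per condition a difference of at least 2-fold was a rule of size, not a test. Gene starts were derived from summit positions and distances. The chaining was tested on simulated data. Of 7664 symbols, 6592 (86.0%) matched RefSeq, used to count protein-coding genes. The genes, the list of 48 and the comparisons were chosen with earlier results of these data known. All list genes with a region are named, and the 2 nearest loci are given for each gene's highest-signal shared locus, leaving out list genes, LOC symbols and chromosome Y. Alternatives were the highest bin, summed signal, centring, a pseudocount, a 1.5-fold rule, stricter overlap, gene bodies alone and regions at or above the median signal. Signal per kb and chaining within 600 bp were added after seeing the data.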

Additional observations from a re-analysis of the deposited data

How the results depend on the processing

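No paired analysis was possible because each condition has 1 library and no replicate numbers to pair. With no replicates, a ratio was taken to have moved when it changed by more than the SD of the ratio over all shared loci, 0.27. The median log2 ratio of the 16 shared loci stayed within that, from 0.007 by summed signal to 0.25 by the highest bin, with 0.04 after centring. That SD is the spread of single loci and exceeds the median of 0.09 itself. Staying within it therefore does not show that the median is stable, and its size depends on the measure. By summed signal the median over all shared loci was 0.11. By signal, 0 of the shared loci were past the fold rule with any measure or setting tried, the 1.5-fold rule on mean signal and the 2 chosen after seeing the data included. Single loci moved at 8 of 16 with the summed signal, 4 of 16 with the highest bin and 1 of 16 with signal per kb. By sign alone, 5 loci turned with the summed signal (EHMT1 over the start and deepest in the gene, the last ATF7IP locus, the downstream KDM3A locus and the strongest KDM4B locus), 2 with the highest bin and 1, SETDB1, with signal per kb (0.19). Loci called in both libraries numbered 15 of 18 with an overlap of 50% of the shorter region (71.3% of all loci), 10 of 11 with regions at or above the median signal, where fewer regions remain (65.3%), and 16 of 17 with chaining within 600 bp (73.7%). Loci apart by length numbered 2 with the 1.5-fold rule, where the EHMT1 locus over the start joined SETDB1. Of the 43 other list genes, 12 had a region inside the gene and 13 had one at or above the median signal. No share of all genes under either limit is available, so these counts cannot be read as high or low. The unknown depth limits every comparison of signal and length between the libraries, and the cause of these shifts was not tested.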
